A study of Mus musculus with 3 samples.

Results

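The insulin-like growth factor (IGF) genes described here are the ligands Igf1 and Igf2, the receptors Igf1r and Igf2r and the binding proteins Igfbp2 to Igfbp7. These 10 of 9678 genes with a named probe were selected by symbol among the probes in the authors' processed table. They were thus selected on measured values, since 94.7% of the probes in that table were above background on at least 1 of these arrays, and their levels were known when they were chosen. The values below are therefore a description, with no test. The 10 genes had 18 named probes, and each gene is given by its probe with the highest mean. Igfbp1 had no named probe. The RNA was labelled as that of OS25 mouse embryonic stem (ES) cells and was read on 3 Illumina BeadArrays, 1 biological replicate each. The study was of acetylation of lysine 16 on histone H4. There was 1 group and no contrasting condition: cells labelled undifferentiated, grown in GMEM with 10% foetal calf serum, 1000 units/mL human recombinant leukaemia inhibitory factor (LIF) and hygromycin. The labels name no treatment, genotype change or differentiation step, and do not say whether the line is 1 clone.

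IGF1 and IGF2 are small secreted growth factors that signal through the tyrosine kinase receptor IGF1R to the PI3K-AKT and RAS-ERK cascades. IGF2R, the cation-independent mannose 6-phosphate receptor, takes IGF2 up for breakdown in lysosomes and carries no kinase. The binding proteins hold the ligands outside the cell and lengthen their life or keep them from the receptor, and proteases release the ligands again. Igf2 is expressed from the paternal allele and Igf2r mainly from the maternal allele in most mouse tissues.

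Values are normalised log2 intensities. Detection required a detection p under 0.01, a comparison of the gene's probe with that array's negative control beads. The median intensity over all probes was 74.9 to 80.7 per array, and 14515 to 15865 of 45281 probes were above background. Before normalisation between arrays, the median detected gene deviated from its own mean by 0.26, −0.04 and −0.22 log2 units on replicates 1, 2 and 3. Replicate 1 stood apart from the others. Across 7950 genes detected on all 3 arrays, which are not independent replicates, Pearson's r was 0.944 and 0.946 for replicate 1 against replicates 2 and 3, and 0.991 for replicate 2 against 3. Of 20 genes on an ES cell list, 8 had a named probe and 5 were detected, with Zfp42 above background on replicate 1 alone and Klf2 (7.64 ± 0.09, SD, n = 3), Klf4 (7.47 ± 0.87, n = 3) and Klf5 (9.40 ± 0.71, n = 3) detected. Pou5f1, Nanog, Sox2 and Esrrb had no named probe. Tbx3 and Lefty1 were also detected, Tfcp2l1 was at background on all 3 arrays, and Fbxo15 was above background on replicate 1 alone. Of 18 fibroblast and mesenchymal genes, 15 had a named probe and 13 were detected. That is 62.5% of the named ES cell genes and 86.7% of the named fibroblast and mesenchymal genes. Over all genes with a named probe 82.1% were detected, and these counts do not show which cells were present. The summed linear intensity of the 8 named ES cell genes was 1165, 1807 and 1683 on replicates 1, 2 and 3. That of the 15 named fibroblast and mesenchymal genes was 38963, 52180 and 48212. The ES cell label is reported as a label, and the identity of the cells was not tested. In RNA from whole cultures, fewer cells of a type and less RNA per cell cannot be told apart.

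The ligands differed between the arrays, and the receptors did so by less than 2-fold. Of the 10 genes 7 were detected on all 3 arrays, beside 82.1% of all genes with a named probe. The remaining 3, Igf2, Igfbp2 and Igfbp3, were above background on replicate 1 alone, a pattern of 6.3% of all genes with a named probe. Igf1, Igfbp4 and Igfbp5 were detected everywhere and were over 2-fold higher on replicate 1 than on either other array, while Igfbp7 was over 2-fold lower there.

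Igf2, the growth factor of the fetus, had an unprocessed intensity of 2234 on replicate 1, 96.1 on replicate 2 and 78.9 on replicate 3. Its normalised log2 intensity was 10.87, 5.33 and 4.85 in that order, with detection p of 0, 0.0107 and 0.106. Replicate 1 was far above background and the others were not above it, so the fold has only a lower bound. The bound sets replicate 1 against the lowest level of any probe above background on the dimmer array, or against the probe's own level where that is higher. By this measure Igf2 was at least 46.0-fold higher on replicate 1 than on replicate 2, and at least 41.7-fold higher than on replicate 3. The detection p on replicate 2 lay just above the threshold. These bounds hold for background-corrected values: in the authors' processed values, which are not background-subtracted, the highest array was 21.5-fold above the lowest.

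Igf1, the ligand that carries much of growth hormone's action after birth, was detected on every array. It stood at 8.51, 6.97 and 7.22 on replicates 1, 2 and 3 (7.57 ± 0.83, SD, n = 3). Replicate 1 was the highest, 2.92-fold above replicate 2 and 2.45-fold above replicate 3. The second Igf1 probe gave 8.18, 6.68 and 6.72.

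The receptors were level. Igf1r, the signalling receptor, stood at 8.76, 9.27 and 9.00 (9.01 ± 0.26, SD, n = 3), with replicate 2 at most 1.42-fold above replicate 1. Igf2r stood at 9.29, 9.17 and 8.89 (9.12 ± 0.21, n = 3), with replicate 1 at most 1.32-fold above replicate 3. The range of Igf2r, 0.41 log2 units, was close to the median range of all detected genes (0.41), and that of Igf1r was 0.51. Without normalisation between arrays the lowest array for Igf1r was replicate 3 in place of replicate 1. Both probes of each receptor gave differences between arrays that matched in sign.

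**Figure D1:**
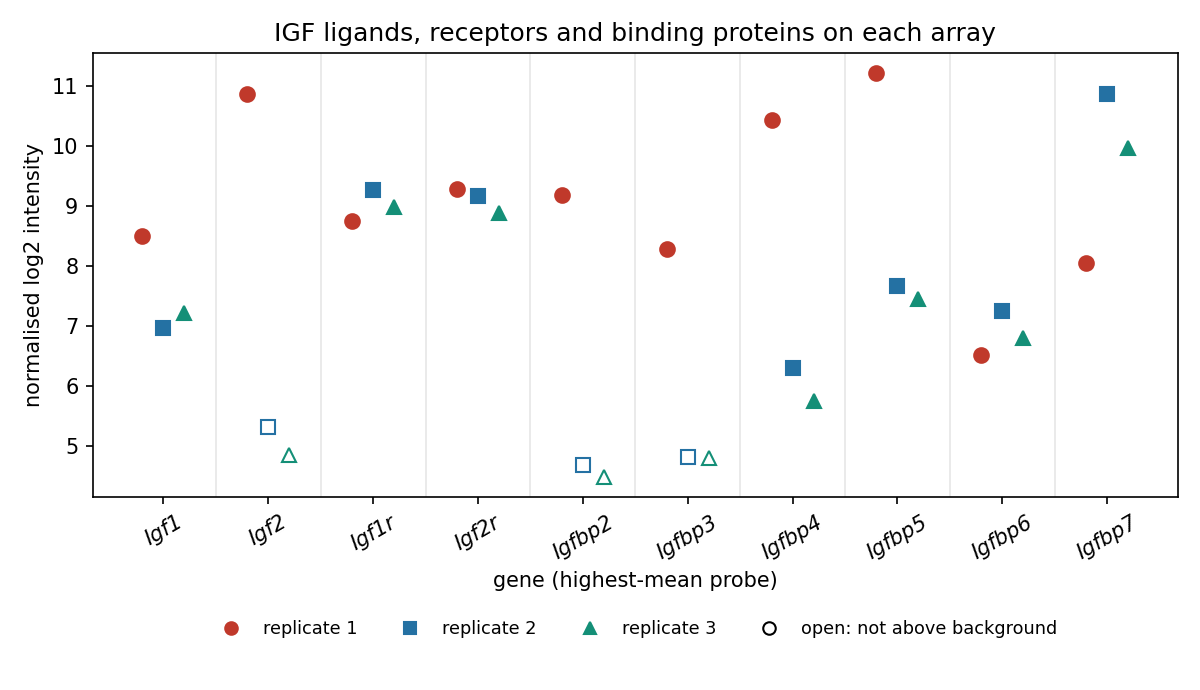
Normalised log2 intensity (vertical axis) of each of the 10 genes (horizontal axis) on replicates 1, 2 and 3, 1 point per array; open points were not above background on that array. Replicate 1 is the highest point for Igf1, Igf2, Igf2r and Igfbp2 to Igfbp5 and the lowest for Igf1r, Igfbp6 and Igfbp7; for Igf2, Igfbp2 and Igfbp3 the other arrays are at background.

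The binding proteins fell into 3 patterns. Igfbp2, Igfbp3, Igfbp4 and Igfbp5 were higher on replicate 1, Igfbp7 was lower there, and Igfbp6 differed by less than 2-fold. Igfbp2, which is widely made in the embryo and the adult liver, had intensities of 753, 79.9 and 68.3 on replicates 1, 2 and 3. Its log2 levels were 9.19, 4.69 and 4.49, with detection p of 0, 0.170 and 0.475. After background correction replicate 1 was at least 14.3-fold above replicate 2 and at least 13.0-fold above replicate 3, and in the authors' processed values the highest array was 8.32-fold above the lowest.

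Igfbp3 encodes the main carrier of IGFs in blood. Its log2 levels were 8.29, 4.82 and 4.81, with detection p of 0, 0.116 and 0.124 on replicates 1, 2 and 3. After background correction replicate 1 was at least 7.67-fold above replicate 2 and at least 6.97-fold above replicate 3, against 4.24-fold from highest to lowest in the authors' processed values. As with Igfbp2, both probes of the gene were above background on replicate 1 alone.

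Igfbp4, a binding protein that mostly holds IGFs from the receptor until the protease PAPP-A cuts it, was above background on all 3 arrays. Its intensities were 1689, 133 and 99.4, and its log2 levels 10.45, 6.31 and 5.75. Replicate 1 was 17.6-fold above replicate 2 and 25.9-fold above replicate 3, while replicates 2 and 3 differed 1.47-fold. Detection p was 0, 0 and 0.00427 on replicates 1, 2 and 3. The level on replicate 3 lay near the lowest level above background there (5.49), so the fold against replicate 3 rests on a value near background. In the authors' processed values the highest array was 12.6-fold above the lowest. The second probe read 9.66, 5.66 and 5.62.

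Igfbp5, which binds to extracellular matrix and is made in bone and muscle, had intensities of 2789, 253 and 198. Its log2 levels were 11.22, 7.68 and 7.45 on replicates 1, 2 and 3. Replicate 1 was 11.6-fold above replicate 2 and 13.6-fold above replicate 3. All 3 Igfbp5 probes showed it, with replicate 1 above replicate 2 by 3.06 to 3.54 log2 units and above replicate 3 by 3.70 to 3.85.

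Igfbp7 went the other way. Its product binds IGFs weakly and also binds insulin and matrix. The intensities were 378, 1891 and 915, and the log2 levels 8.05, 10.88 and 9.98 on replicates 1, 2 and 3. Replicate 1 was the lowest, 7.08-fold below replicate 2 and 3.80-fold below replicate 3. Replicates 2 and 3 differed 1.86-fold, a wider gap than for any other member detected on all 3 arrays. Igfbp6, which prefers IGF2 as its ligand, stood at 6.52, 7.26 and 6.80 (6.86 ± 0.37, SD, n = 3). Its lowest array was replicate 1, and without normalisation between arrays it was replicate 3. Igfbp6 and Igfbp7 each had a single probe.

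**Figure D2:**
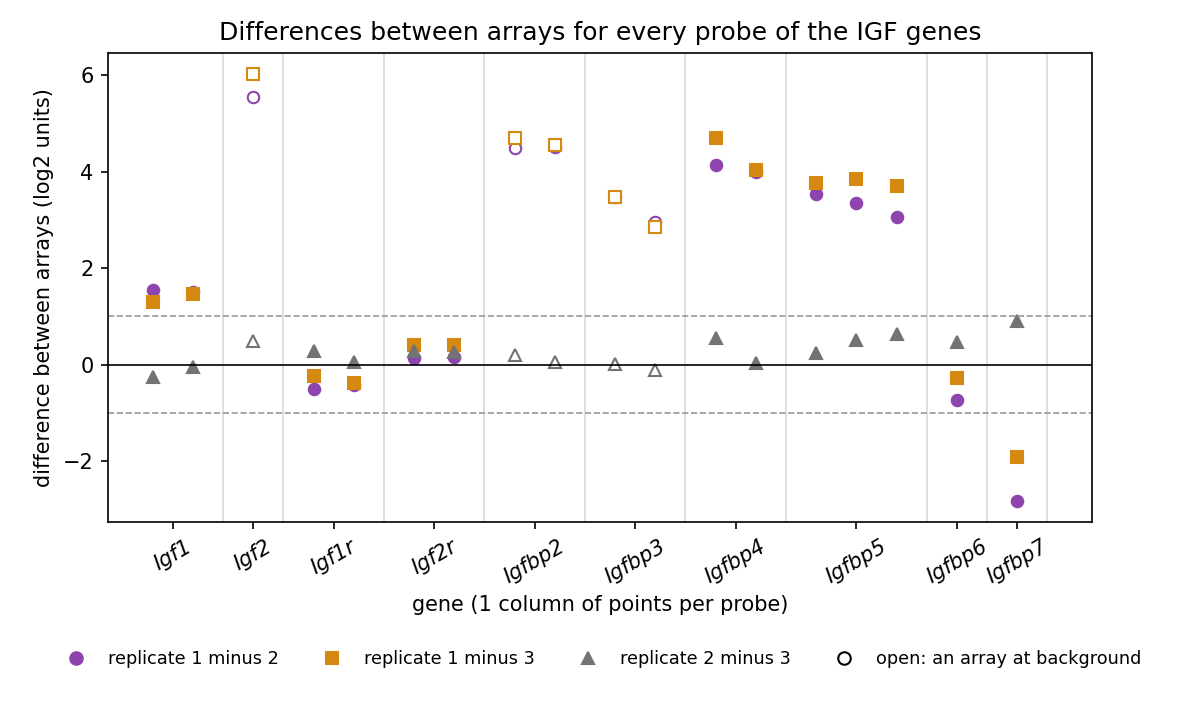
Difference in normalised log2 intensity between each pair of arrays (vertical axis) for all 18 probes of the 10 genes, with a column of points for each probe and dashed lines at 2-fold; open points involve an array at background. Probes of 1 gene sit at similar heights, and every difference between replicates 2 and 3 lies within 2-fold.

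Probes of 1 gene gave like differences between arrays. For the 7 genes with more than 1 probe, the difference between replicates 1 and 2 kept its sign across probes and spread by at most 0.51 log2 units, in Igfbp3. Between replicates 1 and 3 the sign was also shared within each of these genes, and the widest spread was 0.66 log2 units, in Igfbp4. Between replicates 2 and 3 the widest spread was 0.52 log2 units, in Igfbp4, whose probes stood at 0.56 and 0.04. The Igfbp3 probes stood at 0.01 and −0.11 for that pair, both from levels at background.

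The range over the 3 arrays sets these genes beside all others. Among the 7 members detected on all arrays, 4 spanned over 2-fold (Igf1, Igfbp4, Igfbp5 and Igfbp7), where 10.1% of 7950 detected genes did. Their median range was 1.54 log2 units, against 0.41 for all detected genes. By width of range among all detected genes Igfbp4 ranked 2 (4.70), Igfbp5 ranked 12 (3.77), Igfbp7 ranked 40 (2.82) and Igf1 ranked 267 (1.54). The range of Igfbp4 rests on a level near background on replicate 3. Igfbp6 (0.74), Igf1r (0.51) and Igf2r (0.41) spanned less than 2-fold, and 80.3%, 61.9% and 49.8% of detected genes had a smaller range than each in turn. Replicate 1 was more than 2-fold above both other arrays in 3 of the 7 members and in 2.47% of detected genes. It was more than 2-fold below both in Igfbp7 and in 3.46% of detected genes. In 4 of the 7 members replicate 1 lay farther from the middle value than any other array, a share near that of all detected genes (63.7%). The members were chosen with such values known, so nothing particular to them is read from these counts. Without replicate 1, no detected member spanned 2-fold, and 0.493% of detected genes did.

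**Figure D3:**
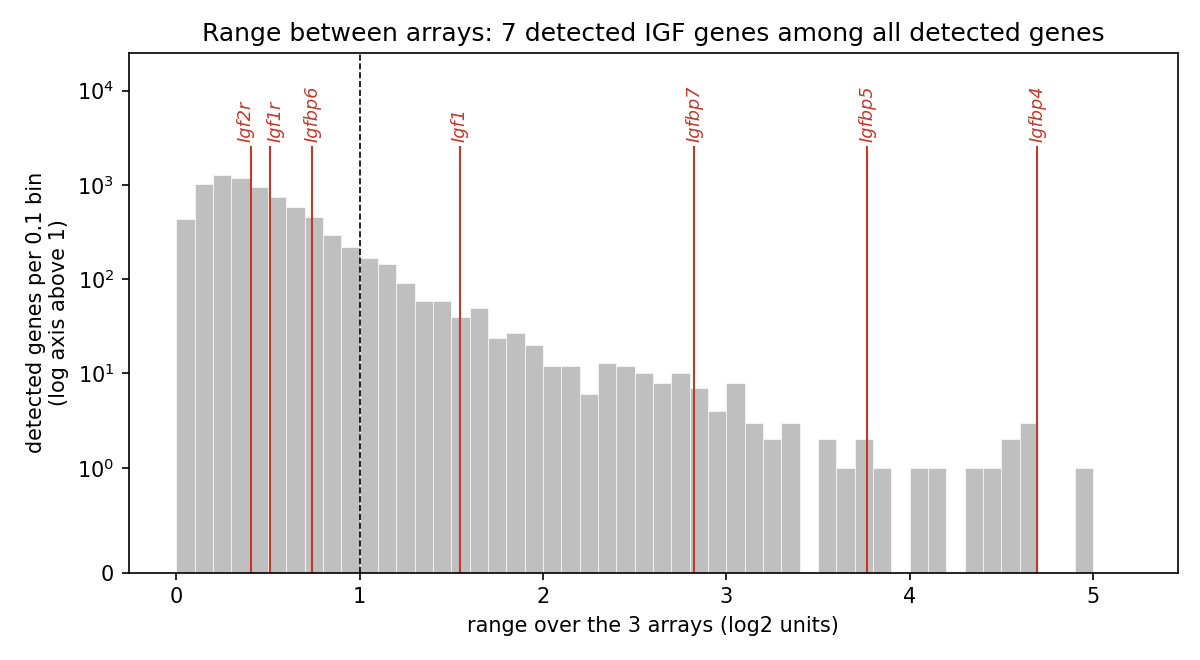
Histogram of the range over the 3 arrays (horizontal axis, log2 units) for 7950 detected genes, with the number of genes per bin on a vertical axis that is logarithmic above 1; red lines mark the 7 detected IGF genes and the dashed line 2-fold. Igf1, Igfbp4, Igfbp5 and Igfbp7 lie right of the 2-fold line and Igf2r, Igf1r and Igfbp6 left of it.

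Genes of the signalling pathway were set beside all detected genes in the same way. Of 71 pathway genes on 4 lists, 45 had a named probe and 40 were detected, beside 82.1% of all genes with a named probe. Of the 40, 2 spanned over 2-fold (5%), both with replicate 1 the lowest, beside 10.1% of all detected genes. The median range of the 40 was 0.38 log2 units, near that of all detected genes (0.41). The 2 were Pappa and Pik3r3. Pappa encodes PAPP-A, the protease that cuts IGFBP4, and stood at 6.66, 8.49 and 8.12 on replicates 1, 2 and 3. Pappa was low on the array where Igfbp4 was high, and a link between these mRNA levels was not tested. Of all detected genes, 3.46% were likewise over 2-fold lower on replicate 1 than on both others. Pik3r3, a regulatory subunit of PI3K, stood at 8.52, 9.64 and 9.47.

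Among other genes of the IGF system 8 of 9 named genes were detected. The insulin receptor gene Insr stood at 8.15, 8.51 and 8.28. The mRNA-binding protein gene Igf2bp3, whose product binds Igf2 transcripts, was at 11.09 ± 0.04 (SD, n = 3), with a range of 0.08 log2 units. Ide, an insulin-degrading protease gene, was at 9.64 ± 0.15 (n = 3) and the secreted protease gene Htra1 at 9.45 ± 0.20 (n = 3). Stc1, whose product inhibits PAPP-A family proteases, was at background on all 3 arrays. The related gene Stc2 was detected on all 3 arrays, at 5.41, 5.62 and 5.89. These levels lay near the lowest above background on each array (5.24, 5.35 and 5.49). H19, Plagl1, Igf2bp2 and Igfals had no named probe.

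Among adaptors and PI3K genes 15 of 17 named genes were detected. Grb10, an adaptor that restrains the receptor, was at 13.14 ± 0.28 (SD, n = 3), the phosphatase gene Ptpn11 at 12.47 ± 0.27 (n = 3) and the adaptor gene Shc1 at 11.91 ± 0.27 (n = 3). The receptor substrate gene Irs2 stood at 8.68, 8.91 and 8.85. Irs1, the other substrate on the list with a named probe, was above background on replicate 3 alone (detection p of 0.0919, 0.0491 and 0.00641), and Grb14 on replicate 2 alone. Of the AKT, mTOR and FOXO genes 13 of 15 were detected and none spanned 2-fold, with Rps6 at 13.46 ± 0.18 (n = 3), Eif4ebp1 at 12.16 ± 0.16 (n = 3) and Rheb at 10.89 ± 0.19 (n = 3). Gsk3a was at background on all 3 arrays, and Foxo3 was above it on replicates 1 and 2. In the RAS and ERK list 4 of 4 named genes were detected: Nras (11.78 ± 0.41, n = 3), Map2k2 (11.62 ± 0.13, n = 3), Araf (10.19 ± 0.20, n = 3) and Rps6ka3 (7.76 ± 0.47, n = 3). The genes of AKT itself had no named probe.

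**Figure D4:**
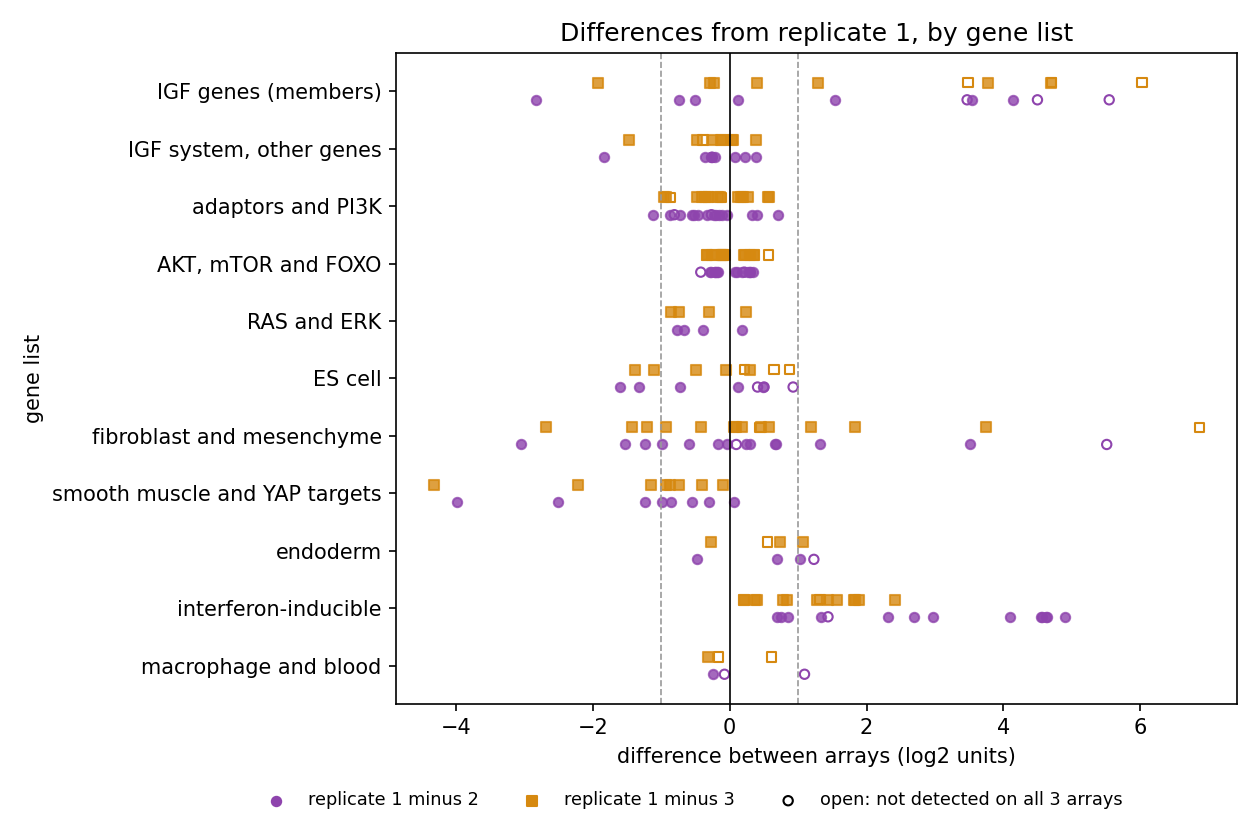
Difference in normalised log2 intensity of replicate 1 from replicate 2 (circles) and from replicate 3 (squares) for each gene with a named probe, by gene list, with dashed lines at 2-fold; open points were not detected on all 3 arrays. Nearly all pathway genes lie within 2-fold, as most detected genes did. The IGF genes and the fibroblast, smooth muscle and YAP target, and interferon-inducible lists reach far beyond it.

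The genes most like each wide-ranging member were found by the root mean square difference of their deviations from their own mean over the 3 arrays, among 7943 other detected genes. With 3 points per gene this describes these arrays only. Nearest to Igfbp5 was Pdgfra, the receptor gene for platelet-derived growth factor (9.59, 6.07 and 5.84, a difference of 0.011 log2 units), followed by Nrep (0.15) and the growth factor gene Bmp4 (11.51, 8.12 and 8.14, 0.16). The match of Pdgfra rests partly on replicate 3, where its level lay near the lowest above background (5.49). Nearest to Igfbp4 were the class II antigen gene H2-Ab1 (0.22), Pdgfra (0.39) and the sialyltransferase gene St6galnac2 (0.52). Nearest to Igf1 were Ramp2 (0.040), the transcription factor gene Nfib (0.053) and the histone gene H2ac21 (0.062). Nearest to Igfbp7 were the synuclein gene Sncg (5.37, 8.17 and 7.15, 0.061), the histone gene H2ac18 (0.073) and the p53 target Ccng1 (9.46, 12.38 and 11.65, 0.11). Sncg on replicate 1 likewise lay near the lowest level above background there (5.24).

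Genes of other cell types and of interferon response also differed between these arrays. Their lists were chosen with earlier results of these data known, and 10.1% of all detected genes spanned over 2-fold. The fibroblast and mesenchymal list was split: 6 of its 13 detected genes spanned over 2-fold, 3 with replicate 1 the highest and 3 with it the lowest. The first 3 were Col1a2, Col6a1 (11.53, 10.22 and 9.71) and Pdgfra, the gene nearest in pattern to Igfbp5. The other 3 were Thy1 (6.81, 9.85 and 9.49), S100a4 (6.81, 8.34 and 8.24) and Vim (12.19, 13.43 and 13.40). Col6a1, Thy1, S100a4 and Vim were named after their values were seen. Dcn, a matrix proteoglycan gene also named after its values were seen, is outside that count because it was not above background on replicate 3. It stood at 12.28, 6.77 and 5.42, high on replicate 1 as Igf2 and Igfbp2 to Igfbp5 were. Col1a1 (11.95, 11.99 and 11.76) and Col5a1 (11.80, 12.40 and 12.22) were within 2-fold, Col1a2 was at 7.55, 6.88 and 6.36 on replicates 1, 2 and 3, and Col3a1 was above background on replicates 1 and 2. The summed linear intensity of the 15 named genes was 38963, 52180 and 48212 on replicates 1, 2 and 3. Without Acta2, which the smooth muscle list also holds, it was 27832, 30148 and 27044. With Dcn and Col3a1 left out as well, it was 22810, 29991 and 26964. The smooth muscle and YAP target list had 3 of 8 detected genes over 2-fold, each lowest on replicate 1. Its sum was 22559, 45685 and 45093. Tagln stood at 6.01, 8.51 and 8.23, Ccn2 at 11.96, 12.82 and 12.84, Acta2 at 13.44, 14.43 and 14.37 and Myl9 at 10.97, 11.28 and 11.07. With Tagln, those over 2-fold were Ankrd1 (7.52, 11.49 and 11.83) and Axl (11.94, 13.18 and 13.09), both named after their values were seen. The endoderm list had 3 detected genes of 4 named, and its sum was 6204, 5745 and 5173, with Gata6 at 10.81, 9.78 and 9.74, Dab2 at 10.64, 9.95 and 9.91, Col4a1 at 11.43, 11.91 and 11.70, and Gata4 above background on replicate 1 alone.

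Beside 10.1% of all detected genes, the interferon-inducible list had 10 of 13 detected genes over 2-fold, all with replicate 1 the highest. Its sum was 62917, 18595 and 35359 on replicates 1, 2 and 3, so replicate 3 lay between the others. Igtp stood at 12.55, 7.64 and 10.98, Irgm1 at 12.57, 11.82 and 12.35, Irgm2 at 12.09, 7.54 and 10.81, and Gbp2 at 12.27, 7.66 and 10.46. Igf2 and Igfbp2 to Igfbp5 were instead within 2-fold of each other on replicates 2 and 3, or at background on both. Of 12 macrophage and blood genes 3 had a named probe and 1 was detected, Cd14 (6.68, 6.92 and 6.99). Cd34 was above background on replicates 1 and 3, and Aif1 was at background on all arrays. In the ES cell list Klf4 (6.48, 8.08 and 7.86) and Klf5 (8.59, 9.92 and 9.70) were the 2 of 5 detected genes over 2-fold, and its sum was 1165, 1807 and 1683. The part of these cell types and of the interferon genes in the differences of the IGF genes was not tested.

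The IGF genes that were high on replicate 1 lie on several chromosomes: Igf2 on chromosome 7, Igf1 on 10, Igfbp3 and Igfbp4 on 11, and Igfbp2 and Igfbp5 on 1. Igfbp2 and Igfbp5 are neighbours on opposite strands, with 0 annotated genes between them in RefSeq. Igfbp3 likewise neighbours Igfbp1 on chromosome 11, and Igfbp1 had no named probe. The 250 bases before the start of Igfbp2, Igfbp5 and Igfbp7 are shown because the first pair are neighbours that moved together between arrays and the last went the other way. The Igfbp2 window is that of the first of its 2 starts. They are RefSeq sequences of GRCm38.p6, 5′ to 3′ on the gene's strand, with capitals for GC boxes (GGGCGG on either strand, the motif bound by SP1) and TATA boxes (TATAAA on either strand).
Igfbp2, chr1:72824230-72824479, plus strand: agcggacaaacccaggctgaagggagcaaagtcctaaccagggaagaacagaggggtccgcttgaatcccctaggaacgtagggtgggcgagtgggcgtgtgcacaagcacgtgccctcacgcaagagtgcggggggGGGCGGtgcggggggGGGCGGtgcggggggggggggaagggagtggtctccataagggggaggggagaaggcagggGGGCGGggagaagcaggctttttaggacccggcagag
Igfbp5, chr1:72874866-72875115, minus strand: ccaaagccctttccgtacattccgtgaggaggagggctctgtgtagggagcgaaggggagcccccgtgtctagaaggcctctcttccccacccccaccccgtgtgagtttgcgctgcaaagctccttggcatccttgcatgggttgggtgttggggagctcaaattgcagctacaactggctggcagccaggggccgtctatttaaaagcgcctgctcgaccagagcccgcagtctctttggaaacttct
Igfbp7, chr5:77408046-77408295, minus strand: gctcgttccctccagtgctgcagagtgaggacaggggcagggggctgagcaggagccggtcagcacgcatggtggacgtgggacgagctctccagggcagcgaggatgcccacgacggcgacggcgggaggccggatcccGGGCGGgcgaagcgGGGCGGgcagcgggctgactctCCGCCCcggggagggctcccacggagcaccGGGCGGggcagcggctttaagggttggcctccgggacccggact

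The printed Igfbp2 window, at the first of its 2 starts, held 3 GC boxes, and the window at its second start held none. The Igfbp5 window also held none, and that of Igfbp7, which moved oppositely, held 4. None of these 4 windows held TATAAA on either strand, and variants of the TATA box were not searched. The G and C content was 67.2% and 56.4% at the first and second start of Igfbp2, 58.8% for Igfbp5 and 74.0% for Igfbp7, against a median of 52.4% over 32851 windows of the same length. All 10 members had a RefSeq window, 14 in all since Igf2 has 4 starts and Igfbp2 has 2. A GC box was found in 6 of the 14 (42.9%), in Igf2, Igf1r, Igf2r, Igfbp2 and Igfbp7, against 32.7% of all windows. The TATA box was found in 2 of the 14, for Igfbp4 and Igfbp6, against 12.4% of all windows. In Igfbp4 it began 28 bases before the start. CCAAT was found in 3 of the 14, for Igf1, Igf2 and Igfbp6 (33.8% of all windows). The AP-1 motif TGANTCA was found in 2 of the 14 (6.75% of all windows), for Igf1 and for the second start of Igfbp2, which is not printed. The STAT motif TTCNNNGAA was found for no member (7.02%). Each was searched on both strands, and none of these motifs contains another. No motif was found in all of the members that were high on replicate 1.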

How the data were processed

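Per the labels, the RNA was isolated with Trizol and DNase I and hybridised as biotinylated cRNA to 3 mouse Illumina BeadArrays. The deposited unprocessed table gives linear intensity and a detection p-value per probe, per the file headers. The authors' processed table holds log2 intensity of 17754 of 45281 probes, quantile-normalised and not background-subtracted. The submitters' processing notes name limma; the bead software and the probe filter are not stated there. Each detection p-value was taken from the column right of its intensity. Gene names came from the platform annotation, updated by Entrez identifier: 15045 probes had 1 gene, and 2709 with several or none were left out.

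The unprocessed intensities were corrected and normalised here with neqc (limma 3.58.1 under R 4.3.3), which applies normexp by detection p-values (offset 16), then quantile normalisation and log2. Genes were called detected where the highest-mean probe was under p of 0.01 on all 3 arrays. With 1 group no test was made. Summaries used Python 3.11.15, pandas 2.3.3 and numpy 2.4.6, and were checked on simulated data. The number of arrays limits the precision. Alternatives covered detection, normalisation, probe choice and each replicate left out.

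Members and lists were chosen with earlier results of these data known. Named genes were all members; of each pathway list, the 3 detected genes with the highest means, those over 2-fold and those not detected; the first 4 measured genes of each marker list; and the 3 genes nearest in pattern to each member over 2-fold. Insr, Irs2, Rps6ka3, Dcn, Col6a1, Thy1, S100a4, Vim, Ankrd1, Axl and genes with no named probe were added after their values were seen. So were Stc2, Tbx3, Lefty1, Tfcp2l1 and Fbxo15.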

Additional observations from a re-analysis of the deposited data

How the results depend on the processing

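The number of members detected on all arrays (7 of 10) was between 6 and 10 under every detection threshold and probe rule tried, and 7 without any 1 replicate. That of pathway genes (40 of 45) was between 35 and 43. Over all genes with a named probe the share detected was 71.8% to 96.2% under those rules. It was 83.0% to 85.0% with a replicate left out. Counting a gene by any of its probes, an alternative chosen after seeing the data, gave 7 and 40. The number of members over 2-fold (4 of 7) was 4 under each normalisation and probe rule. It was 0 to 4 with a replicate left out, 0 without replicate 1, and 7 of 10 with undetected genes included. Over all detected genes the share over 2-fold was 10.1% in the main setting and 5.77% to 18.1% under the normalisation and probe rules. Without replicates 1, 2 and 3 in turn it was 0.493%, 8.24% and 7.82%. With undetected genes included it was 12.4% of all genes with a named probe. With those genes included, replicate 1 was farthest from the middle value in 7 of 10 members. Pathway genes over 2-fold (2 of 40) numbered 0 to 2 with a replicate left out, 0 without replicate 1 and 1 without replicate 2, 3 without normalisation between arrays and 1 with a gene's probes averaged. No test was made, so no call could be lost. In the authors' processed values, which have no background subtraction, the range over arrays was 3.66 log2 units for Igfbp4, 3.38 for Igfbp5, 2.58 for Igfbp7, 1.19 for Igf1, 4.43 for Igf2, 3.06 for Igfbp2 and 2.08 for Igfbp3. Without normalisation between arrays Igf2r spanned 0.93. Levels near background give only bounds. No paired analysis was possible because there is 1 group.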
